A study of Quercus lobata with 12 samples.

Results

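In the leaves of valley oak (Quercus lobata) seedlings, 206 genes had low RNA in both of 2 LAY-15 seedlings whose RNA was extracted on day 19 of October, one sprayed with 5-Azacytidine and the other not. They were selected on measured values from 39373 genes: the higher level of LAY-15-30 (control) and LAY-15-34 (treated) had to be no more than 1/2 of the lowest level among the other 10 seedlings, and that lowest level had to reach 1 CPM. CPM is the gene's read count per 1000000 counted reads of the library, and it is not corrected for gene length, so levels are compared between seedlings and not between genes. Of the 15471 genes that reached 1 CPM in all of the other 10 seedlings, 206 met the rule, which is 1.33%. Because the rule used these values, the low levels in the pair are a description and were not tested.

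The study sequenced leaf RNA of 12 open-pollinated seedlings from 3 mother trees (families LAY-15, YORK-09 and HV-11), with 2 control and 2 treated seedlings in each family (n = 6 treatment, n = 6 control). Treated seedlings were sprayed for 27 days with 50 µM 5-Azacytidine in the surfactant TWEEN 20 and controls with TWEEN 20 alone. Leaves were collected once, at the end, and RNA extraction took place on October days 16, 19 and 30, each time on 1 control and 1 treated seedling of a family. The controls are LAY-15-30 and HV-11-05 on day 19, YORK-09-03 on day 16, and LAY-15-03, HV-11-34 and YORK-09-10 on day 30. Their treated partners, in the same order, are LAY-15-34, HV-11-33, YORK-09-08, LAY-15-09, HV-11-40 and YORK-09-37.

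Each value comes from a different plant, but LAY-15-30 and LAY-15-34 are the only seedlings of their family and day. Family, extraction day, the plants themselves and anything else that pair shared therefore cannot be told apart. The seedlings had also been picked for large phenotypic differences, treated and control plants stood apart in the growth chamber, and the surfactant damaged leaves of both groups. For its sequencing of DNA methylation the paper used LAY-15-30 and LAY-15-34, together with a pair of another family. These plants were chosen because treated and control differed most clearly in phenotype within their family. Whether that choice bears on the low levels was not tested. In bulk leaf RNA, fewer cells of a type and less RNA per cell cannot be told apart either.

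5-Azacytidine is a cytidine analogue that becomes built into nucleic acids and traps DNA methyltransferases, so that newly copied DNA loses cytosine methylation. In plants cytosine methylation occurs in CG, CHG and CHH contexts, it holds transposable elements silent, and within the body of a gene it is common at genes expressed at steady levels. The identifiers of the deposited table could be paired with no gene name: 0 of 39373 matched the RefSeq annotation given for the species. No role can thus be given to any of the 206 genes, no pathway or cell type list could be counted, and the leaf identity of the samples was not checked against marker genes.

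The libraries held 9926728 to 11570198 counted reads. LAY-15-30, with 9957359, and LAY-15-34, with 11415235, lay within the range of the others, and so did their numbers of genes with a read, 25856 and 26484 of a range of 25687 to 27483. The most abundant 10 genes took 11.7% of the reads in LAY-15-34 and 8.39% in LAY-15-30, within the range of the other libraries, 5.27% in YORK-09-08 to 11.7% in LAY-15-09. The TMM factor of LAY-15-34 was 0.879, the lowest of the 12, against 1.04 for LAY-15-30 and 1.18 at most. When CPM was rescaled with these factors, 180 genes met the rule, 174 of them among the 206. No library was a repeat of another: the chi-square per degree of freedom between libraries was 26.3 to 151 over the 66 possible pairings.

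The same rule, applied to each of the other 5 pairs of family and day in turn, picked 14 genes for HV-11 on day 19, 11 for HV-11 on day 30, 8 for LAY-15 on day 30, 10 for YORK-09 on day 16 and 14 for YORK-09 on day 30. These are 0.0537% to 0.0932% of the genes that could have met it. The reverse rule, with both seedlings of the day-19 LAY-15 pair at 2 or more times the highest of the other 10, picked 583 genes. On that side the other pairs had 7 (HV-11, day 19), 54 (HV-11, day 30), 18 (LAY-15, day 30), 192 (YORK-09, day 16) and 11 genes (YORK-09, day 30), so the day-16 YORK-09 pair also had many.

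**Figure D1:**
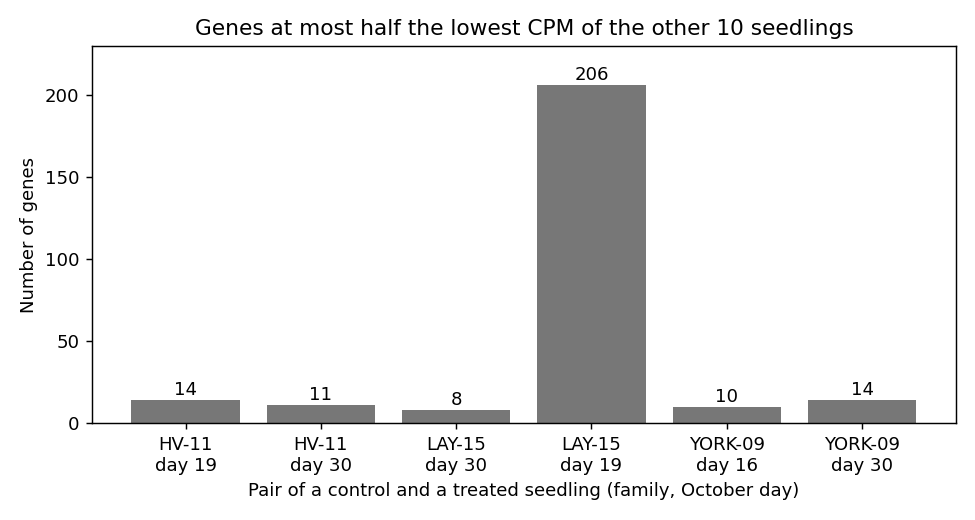
Number of genes (vertical axis) whose CPM in both seedlings of a pair was at most 1/2 of the lowest CPM of the other 10 seedlings, for each of the 6 pairs of a control and a treated seedling (horizontal axis, family and October day). The bar of the day-19 LAY-15 pair stands at 206 and the other 5 bars at 8 to 14.

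Summed over the 206 genes, the level was 1195 CPM in LAY-15-30 and 2274 CPM in LAY-15-34, which is 0.120% and 0.227% of their counted reads. In the other 10 seedlings the sum ran from 10731 CPM in HV-11-33 to 29713 CPM in HV-11-05, or 1.07% to 2.97% of the reads. The sum in HV-11-05 owed 15901 CPM to a single gene, and without that gene it was 13813 CPM. Per gene, the median level was 0.904 CPM (9 counts) in LAY-15-30 and 2.06 CPM (23.5 counts) in LAY-15-34, and 13.5 to 30.5 CPM in the others. The median gene had 10.2 times the level in the median other seedling that it had in the mean of the pair.

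**Figure D2:**
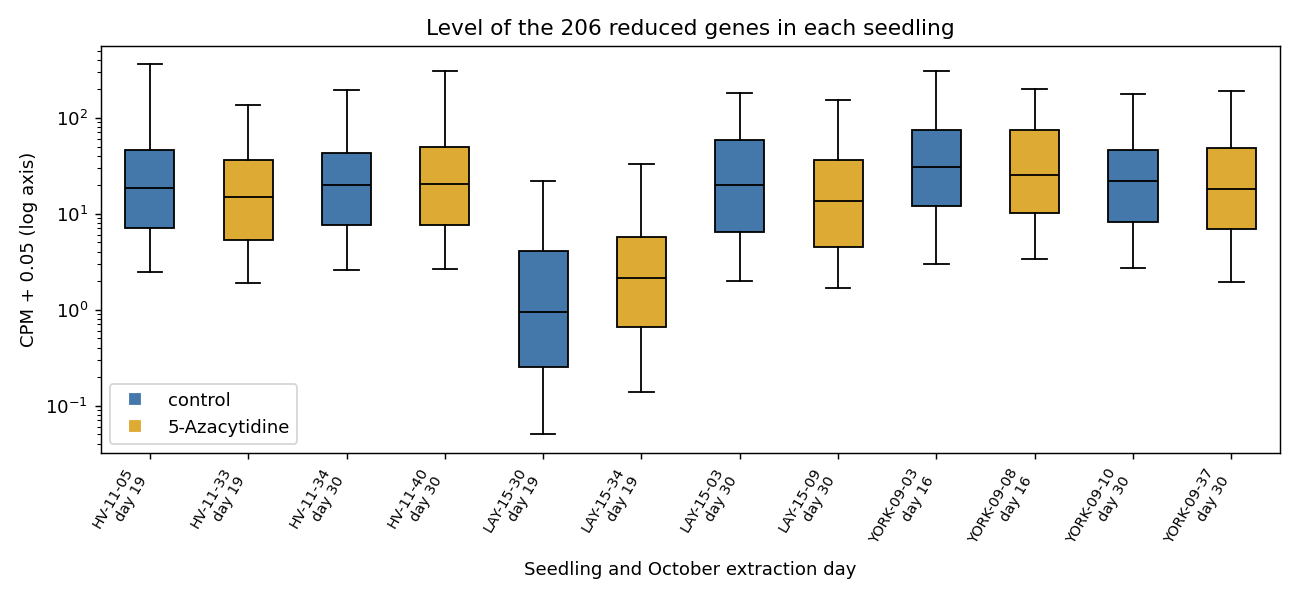
Levels of the 206 reduced genes in each seedling, as CPM + 0.05 on a log axis, with controls in blue and treated seedlings in yellow; boxes span the quartiles with the median as a line, and whiskers run from the 5th to the 95th percentile over genes. The median gene stood at 0.904 CPM in LAY-15-30 and 2.06 CPM in LAY-15-34, against 13.5 to 30.5 CPM in the other 10 seedlings.

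The distance between the pair and the lowest other seedling varied widely among the 206 genes. For this ratio a pair count of 3 or fewer was set to 3. Its median was 2.88, with quartiles of 2.31 and 4.37. It was at least 3 for 90 genes, at least 5 for 45, at least 10 for 11 and at least 20 for 5. Just inside the limit of the rule, one gene had 39.5 CPM in the higher seedling of the pair and 79.2 CPM in the lowest other seedling. Just outside it, a gene had 4.56 and 9.11 CPM. At the limit of 1 CPM, the closest member had a lowest other level of 1.00 CPM and the closest gene outside had 0.952 CPM. There were 31 members with a ratio under 2.2, and 65 genes outside the rule had a ratio over 1.8.

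The reduced genes came from every level of expression. Their median level, taken over the median of the other 10 seedlings, was 19.0 CPM, against 20.5 CPM for the 15471 genes, and the range was 1.68 to 4425 CPM. They made up 1.92% of genes at 1 to 3 CPM (13 of 677), 1.33% at 3 to 10 CPM (51 of 3827), 1.30% at 10 to 30 CPM (66 of 5073), 1.22% at 30 to 100 CPM (52 of 4266) and 1.47% at 100 CPM or more (24 of 1628). These shares ran close to the 1.33% over all levels.

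Many of the genes had almost no reads in the pair. LAY-15-30 had 0 counts of 28 genes and at most 3 counts of 62, and LAY-15-34 had 0 counts of 5 genes and at most 3 counts of 28. Both seedlings had at most 3 counts of 18 genes, and both had 0 counts of 3. A count of 0 allows up to 3 counts, or 0.301 CPM in LAY-15-30 and 0.263 CPM in LAY-15-34, for counting error only, so these genes were not detectable at this depth and are not shown to be absent.

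The pair was not even. LAY-15-30, the control, was the lower seedling for 153 of the 206 genes, LAY-15-34 for 50, and 3 were tied. Among the 15189 of the 15471 genes with over 3 counts in both seedlings, LAY-15-30 was the lower for 38.2%. For the 134 reduced genes with over 3 counts in both, LAY-15-30 was the lower for 96, and the median ratio of the treated to the control seedling was 1.45. For 17 of those 134 the control had less than 1/4 of the level of the treated seedling, and for 0 the treated seedling had less than 1/4 of the control. Taken alone, LAY-15-30 had 1245 genes at or under 1/2 of the lowest of the other 10, and LAY-15-34 had 419. The 206 genes are 16.5% of the first set and 49.2% of the second. Since the rule takes the higher of both seedlings, genes low in the control and only moderately low in the treated seedling were left out.

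**Figure D3:**
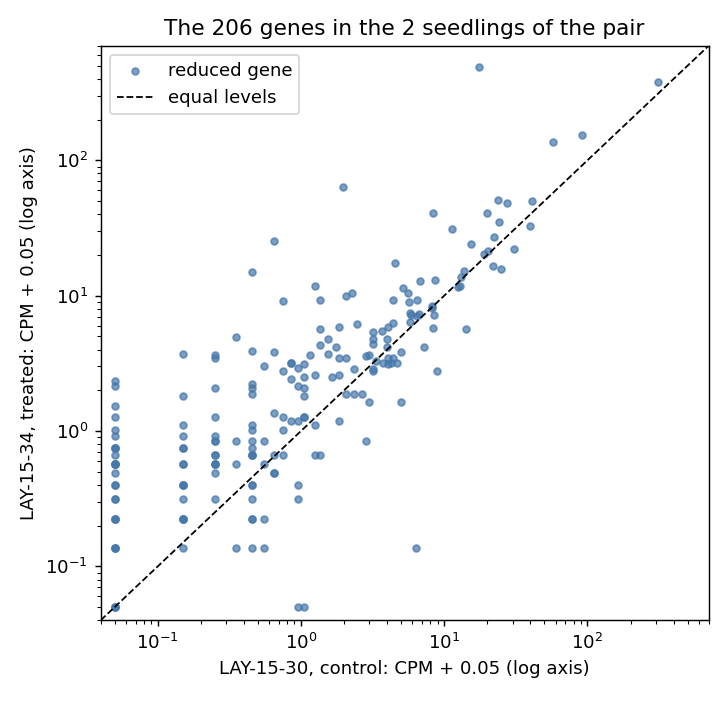
Level of each of the 206 reduced genes in LAY-15-30 (horizontal, control) and LAY-15-34 (vertical, treated), as CPM + 0.05 on log axes, 1 point per gene, with a dashed line where the levels are equal. Points above the line are the 153 genes lower in the control, 50 lie below it and 3 on it; the column at the left edge holds the 28 genes with 0 counts in LAY-15-30.

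The most abundant of the reduced genes was QL08p021800. Its level was 17.6 CPM (175 counts) in LAY-15-30 and 491 CPM (5606 counts) in LAY-15-34. In the other controls it was 15901 CPM in HV-11-05, 4533 in HV-11-34, 6144 in LAY-15-03, 4317 in YORK-09-03 and 4590 in YORK-09-10. In the other treated seedlings it was 1820 CPM in HV-11-33, 3516 in HV-11-40, 5326 in LAY-15-09, 3003 in YORK-09-08 and 1617 in YORK-09-37. Both members of the pair lay under all other seedlings, and the control of the pair lay far under its treated partner, while in the other 5 pairs the control was the higher one. The lowest other seedling had 3.29 times the level of LAY-15-34. In the edgeR fit over 12 seedlings the treated-to-control difference of this gene was -1.23 on the log2 scale (SE 1.05, adjusted p = 1.00). It was 0.18 without HV-11-05, a fit in which LAY-15-30, low by the rule, was the only day-19 control. Without the pair it was -0.99, and over all alternatives but the one without HV-11-05 it was -1.55 to -0.47.

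The gene with the largest ratio, once pair counts of 3 or fewer were set to 3, was QL02p031538. It had 0.502 CPM (5 counts) in LAY-15-30 and 0.526 CPM (6 counts) in LAY-15-34. The other controls had 338 CPM in HV-11-05, 84.4 in HV-11-34, 87.8 in LAY-15-03, 146 in YORK-09-03 and 47.0 in YORK-09-10. The other treated seedlings had 31.1 CPM in HV-11-33, 57.3 in HV-11-40, 40.2 in LAY-15-09, 34.0 in YORK-09-08 and 39.2 in YORK-09-37. The lowest of these was 59.1 times the higher value of the pair, and the pair itself was level. Outside the pair, the treated seedling was under its control in each of the 5 pairs, although the treated and control ranges overlapped through YORK-09-10 and HV-11-40. The difference between treatments was -1.80 on the log2 scale with all 12 seedlings (SE 1.17, edgeR adjusted p = 1.00). Without the pair it was -1.47 (SE 0.46, edgeR unadjusted p = 0.0113, adjusted p = 1.00). Over all alternatives it ran from -2.07 to -0.30, and the smallest difference, -0.30, was the one without HV-11-05.

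The next genes by level were also deeply covered. The second had 313 CPM in LAY-15-30 and 380 in LAY-15-34, against 1003 to 3786 CPM elsewhere. The third had 91.2 and 154 CPM in the pair and 590 to 1523 elsewhere. For the fourth, the control of the pair was close to empty at 1.91 CPM, its treated partner had 63.8, and the others had 246 to 2291.

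By the same ratio, the next gene had 1 count in each seedling of the pair and 14.9 to 81.8 CPM elsewhere, and with so few counts its place relative to QL02p031538 is not fixed. The next 3 had a lowest other level over 20 times the pair. One had 1.00 and 1.23 CPM in the pair and 30.8 to 119 CPM elsewhere (ratio 25.1). Another had 0.904 and 1.14 CPM against 27.3 to 66.1 (ratio 24.0), and the last had 1.21 and 0.613 CPM against 27.2 to 139 (ratio 22.6). These genes were thus expressed in every other seedling, where the pair had few reads.

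Some reduced genes stood in neighbouring rows of the deposited table, whose identifiers are in sorted order. There were 7 runs of 2 adjacent members, 14 genes in all, and no longer run. The partners' log2 levels correlated at 0.642 to 0.957 over the other 10 seedlings, values that rest on shared libraries and are given as a description. The row next to QL02p031538 held a member with 0 counts in both seedlings of the pair and 1.12 to 73.7 CPM elsewhere, with a correlation of 0.853. Its highest level, 73.7 CPM, was in HV-11-05, where QL02p031538 was highest too. Whether neighbouring rows share reads or are near-identical copies was not tested, because no sequence of these genes was used here. By the leading part of the identifier the share of genes that met the rule ran from 0.660% to 2.09% among the 12 large series, and the QL02 series, which has the most genes, held 40 members of 2408 genes (1.66%).

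Outside the pair, the reduced genes varied more than most. The standard deviation of log2(CPM + 0.5) over the other 10 seedlings had a median of 0.737 for them and 0.431 for the 15471 genes. The highest of the 10 was 5.01 times the lowest for the median member and 2.70 times for the median of all those genes. Among members this span ran from 1.60 to 132. For 6 of them it was under 2, so the gap under the lowest of the 10 was wider than the span of the 10, while for 50 it was 10 or more. The median correlation between members over the other 10 seedlings was 0.168, against 0.0548 for the 15471 genes. The rule sets no limit on the span of the 10. It can still favour genes that vary more between seedlings, so the wider spread may come from the selection, which was not tested.

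Across the other 10 seedlings the first principal component of the members' levels took 25.1% of the variance, against 24.7% for the 15471 genes. On it YORK-09-03 (-10.7) and YORK-09-08 (-10.1) lay at one end, and HV-11-33 (8.51) and LAY-15-09 (8.04) at the other. The first component of the 15471 genes, whose sign is arbitrary, likewise set YORK-09-08 (63.2) apart from LAY-15-09 (-46.0) and HV-11-33 (-41.4), with HV-11-40 (49.6) above YORK-09-03 (27.8), so the members' order is in part that of all genes. Of the 206 genes, 37 had a positive loading, so most were higher towards the YORK-09 end. The matching share of the 15471 genes was not computed. The gene's deviation from its median over these 10 seedlings had a median of 0.50 in YORK-09-03 and 0.37 in YORK-09-08 on the log2 scale. It was -0.39 in LAY-15-09, -0.35 in HV-11-33 and between -0.07 and 0.07 in the other 6, beside -3.12 in LAY-15-30 and -2.48 in LAY-15-34. The 15471 genes had medians of 0.03 in YORK-09-03, 0.17 in YORK-09-08, -0.10 in LAY-15-09 and -0.01 in HV-11-33. In the pair they had 0.02 in LAY-15-30 and -0.20 in LAY-15-34.

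Among the 10, YORK-09-03 was the highest seedling for 58 members (28.2%), against 13.0% of the 15471 genes. YORK-09-08 was the highest for 45 members (21.8%), against 26.1%. The day-16 YORK-09 seedlings held the top 2 places for 30 members (14.6%, against 9.58%). At the other end, LAY-15-09 was the lowest of the 10 for 53 members (25.7%, against 14.4%), and HV-11-33 for 29 (14.1%, against 8.35%). LAY-15-09 is the treated LAY-15 seedling of day 30, and its control partner LAY-15-03 was the lowest for 18 members (8.74%, against 6.95%). The rule set its limits on the lowest of the 10, so these counts of the lowest seedling are a description and were not tested.

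Whether 5-Azacytidine moved these genes was asked with all 12 seedlings and with extraction day as a covariate. No gene passed an adjusted p of 0.05 in edgeR's quasi-likelihood test, 0 of the 206 members and 0 of 23791 genes (0%). The members' median difference, treated minus control, was -0.15 on the log2 scale, beside -0.02 for all genes tested. The estimate was higher in treated seedlings for 71 members and lower for 135. The sign of that median turned when HV-11-05 (0.34) or LAY-15-34 (0.04) was left out. At an unadjusted p under 0.05, 0 members were higher, where 1.65% of all genes were, and 1 was lower (0.485%), where 1.15% of all genes were. These counts are no evidence about the members, since the rule gave each of them 1 low control and 1 low treated seedling, which widens its residual spread. DESeq2 called 23 genes (0.0967%) and none of them was a member.

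By the rule, every member was far from the others in 1 control and 1 treated seedling of this comparison. With the pair left out, 10 seedlings remained, and again 0 of 24756 genes (0%) passed an adjusted p of 0.05 in edgeR. At an unadjusted p under 0.05, 17 members (8.25%) were then lower in treated seedlings, where 1.82% of all genes were, and 1 member (0.485%) was higher, where 1.75% of all genes were. The median difference was -0.20, against 0.00 for all genes tested. With the 6 pairs of family and day as a block, 10 members (4.85%) were lower, where 1.17% of all genes were, and 4 (1.94%) were higher, where 1.79% were. With the block but without the pair 18 (8.74%) were lower, where 1.76% of all genes were, and 0 were higher, where 1.54% were. Neither block fit called any gene at an adjusted p of 0.05 (0%). The smallest adjusted p of any member without the pair was 0.965, so no single member was called. All genes tested include many that did not reach 1 CPM in all of the other 10 seedlings, as every member did. The members' levels also correlate, and the shares were not tested against each other.

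The member with the smallest p in that fit had 18.4, 22.8, 28.7, 34.7 and 26.7 CPM in the 5 controls. Its treated partners had 7.38, 14.8, 10.6, 20.0 and 11.3 CPM. Treated lay under control in each pair, and YORK-09-08 at 20.0 CPM was the only treated seedling above a control, HV-11-05. The difference was -1.09 on the log2 scale (SE 0.17, edgeR unadjusted p = 0.000148, adjusted p = 0.965).

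Pair by pair, the direction was shared by most pairs outside the pair of the rule. The rule used the values of the day-19 LAY-15 pair, so its median and share are a description. The median treated-minus-control difference of the 206 genes, on the scale of log2(CPM + 0.5), was -0.35 in HV-11 on day 19 and -0.43 in LAY-15 on day 30. It was -0.33 in YORK-09 on day 16 and -0.29 in YORK-09 on day 30. The pair of HV-11 on day 30 had 0.14, and the day-19 LAY-15 pair had 0.50. The corresponding medians of the 15471 genes were -0.12, -0.13, 0.10, 0.04, 0.03 and -0.22. Treated was lower for 68.4%, 72.3%, 55.8% and 58.7% of members in the 4 pairs with a negative median, where 58.8%, 62.5%, 44.1% and 46.9% of the 15471 genes were. It was lower for 43.7% in HV-11 on day 30 (47.6% of the 15471 genes) and for 24.3% in the day-19 LAY-15 pair (60.8%).

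In all 5 of the other pairs, 19 members (9.22%) were lower in the treated seedling, where 3.11% of the 15471 genes were. Only 3 members (1.46%) were higher in all 5, where 2.03% of those genes were. Of the 19, 2 were also lower in the treated seedling of the day-19 LAY-15 pair, a description because the rule used the values of that pair. The rule says nothing about the order of treated and control among the other 10 seedlings.

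The gene with the smallest p among members estimated higher in treated seedlings was QL03p065820. It had 5.72 CPM in LAY-15-30 and 7.36 in LAY-15-34. The other controls had 24.3 CPM in HV-11-05, 19.4 in HV-11-34, 21.7 in LAY-15-03, 22.8 in YORK-09-03 and 16.9 in YORK-09-10. The other treated seedlings had 29.8 CPM in HV-11-33, 132 in HV-11-40, 20.7 in LAY-15-09, 29.7 in YORK-09-08 and 35.2 in YORK-09-37. Treated was above control in 5 of 6 pairs, all but LAY-15 on day 30, and HV-11-40 lay far above the rest. Those 5 include the day-19 LAY-15 pair, whose values the rule used. The difference was 1.00 on the log2 scale (SE 0.55, edgeR unadjusted p = 0.0958, adjusted p = 1.00), and over the alternatives it ran from 0.47 without HV-11-40 to 1.44 without HV-11-05. The member with the smallest p in the other direction had a difference of -1.45 (SE 0.59, edgeR unadjusted p = 0.0336, adjusted p = 1.00).

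**Figure D4:**
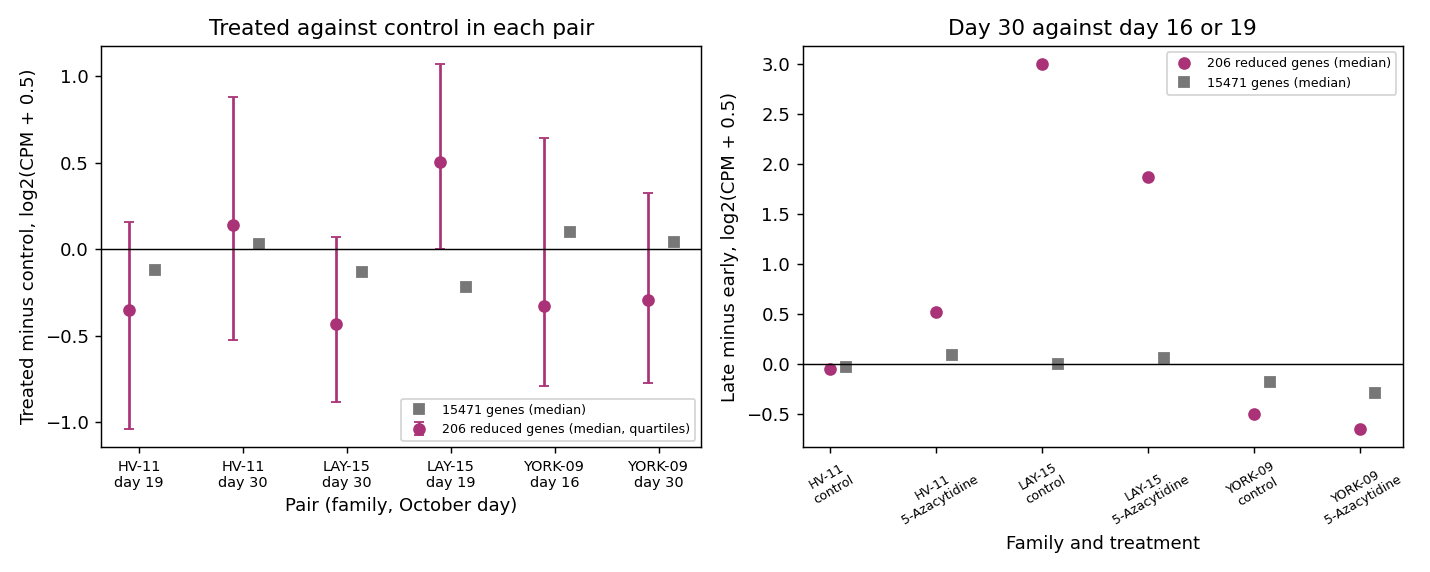
Left, treated minus control in each pair of family and October day, in log2(CPM + 0.5), as the median and quartiles of the 206 reduced genes (purple circles) and the median of 15471 genes (grey squares); right, day 30 minus the earlier day in each family and treatment, as medians of the same 2 sets. The day-19 LAY-15 pair, whose values the rule used, had the highest treated-minus-control median, 0.50. The LAY-15 values at right, 3.00 and 1.87, follow from how the genes were chosen.

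Whether the genes also differed by extraction day in families other than LAY-15 was asked in the 8 seedlings of HV-11 and YORK-09, with family and treatment as covariates. In edgeR 0 of 22772 genes (0%) passed an adjusted p of 0.05, and 0 members. The members' median difference, day 30 minus the earlier day, was -0.09 on the log2 scale, beside 0.00 for all genes. At an unadjusted p under 0.05, 4 members (1.94%) were higher on day 30, where 1.14% of all genes were, and 4 (1.94%) were lower, where 1.23% were. DESeq2 called 46 genes (0.202%) and no member.

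The families differed in this comparison. Fitted alone, HV-11 had a members' median of 0.14 and YORK-09 of -0.28, beside -0.01 and -0.03 for all genes. In the 2 treated HV-11 seedlings the members' median was 0.52 higher on day 30, and in the controls of HV-11 it was -0.05. In YORK-09 the day-30 seedling was lower, by a median of -0.50 in controls and -0.65 in treated seedlings. The 15471 genes had medians of 0.09 and -0.03 in HV-11 and of -0.18 and -0.29 in YORK-09. Day 19, the day of the pair, was the early day of HV-11 only, and there the median member was lower on day 19 in the treated seedling but not in the control.

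The difference between the families was then fitted as a term, YORK-09 minus HV-11, a test chosen after those medians had been seen. The early extraction day was not the same in both families. Family and early day therefore cannot be told apart, either in this term or in those medians. In edgeR 0 of 22772 genes (0%) passed an adjusted p of 0.05, and the smallest adjusted p of a member was 0.369. At an unadjusted p under 0.05, 21 members (10.2%) were lower, where 5.99% of all genes were, and 2 (0.971%) were higher, where 3.34% were. The median of the members was -0.32, against 0.01 for all genes. DESeq2 called 751 genes (3.30%), among them 7 members (3.40%), all lower, a share close to that of all genes.

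The member called with the smallest adjusted p in DESeq2 had 12.8 and 17.8 CPM in HV-11 on day 19 and 32.4 and 49.7 CPM on day 30. In YORK-09 it had 17.8 and 25.3 CPM on day 16 and 10.9 and 14.1 CPM on day 30. Within each family the days did not overlap, and they went opposite ways. The difference was -1.86 on the log2 scale (SE 0.49, DESeq2 adjusted p = 0.00858).

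QL07p041830 had the smallest p among members that were higher on day 30. It had 0.402 CPM in LAY-15-30 and 2.01 in LAY-15-34. In HV-11 it had 45.0 (control) and 6.65 CPM (treated) on day 19 and 342 and 96.2 CPM on day 30. In YORK-09 it had 16.2 and 25.5 CPM on day 16 and 157 and 13.1 CPM on day 30, so 3 of the 4 matched comparisons were higher on day 30 and the treated YORK-09 seedlings went the other way. The difference was 2.32 on the log2 scale (SE 0.79, edgeR unadjusted p = 0.0246, adjusted p = 1.00), and DESeq2 gave an adjusted p of 0.230. In the day-30 LAY-15 seedlings the gene had 41.1 (control) and 5.23 CPM (treated).

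**Figure D5:**
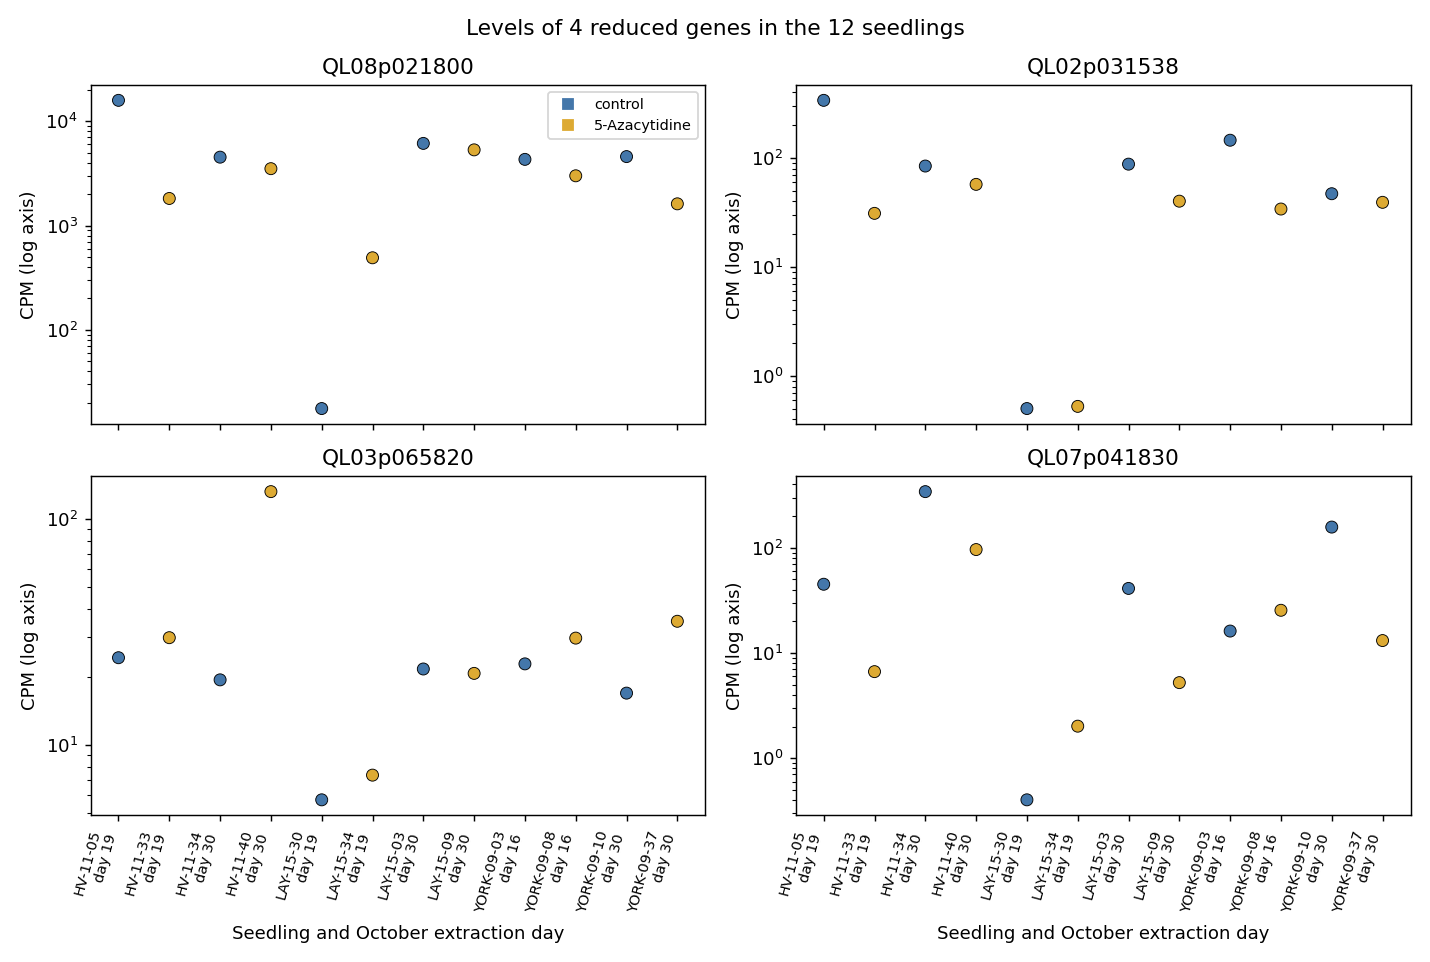
Levels in CPM (log axis) of QL08p021800, QL02p031538, QL03p065820 and QL07p041830 in the 12 seedlings, ordered by family and October day, 1 point per seedling, controls in blue and treated in yellow. In each panel LAY-15-30 and LAY-15-34 are the lowest points, and in the first panel they differ most from each other, at 17.6 and 491 CPM.

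Whether the LAY-15 seedlings of the other day shared the low levels was asked among the 6 seedlings of day 30, with treatment as a covariate. In edgeR 1 of 23748 genes (0.00421%) passed an adjusted p of 0.05, and it was not a member. The members' median difference, LAY-15 minus the other families, was -0.27 on the log2 scale, beside -0.03 for all genes, with 75 estimated higher and 131 lower. At an unadjusted p under 0.05, 8 members (3.88%) were lower, where 2.10% of all genes were, and 5 (2.43%) were higher, where 1.89% were. This median depended on the seedling: it was -0.45 without LAY-15-03, -0.10 without LAY-15-09 and -0.12 without HV-11-40. Because the rule needed the pair to lie under every other seedling, it kept out genes that were very low in LAY-15 on day 30.

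By non-overlap, both day-30 LAY-15 seedlings lay under all 4 others of that day for 24 members (11.7%), where 7.44% of the 15471 genes did. They lay over all 4 for 11 members (5.34%), where 5.64% did.

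DESeq2 called 250 genes (1.05%) in this comparison and 4 members (1.94%), 3 of them lower in LAY-15 and 1 higher. The first of the lower genes had 27.3 and 27.6 CPM in LAY-15 and 43.5 to 64.1 CPM in the others, with no overlap (log2 difference -0.87, SE 0.20, edgeR adjusted p = 0.973, DESeq2 adjusted p = 0.0112). In the day-19 pair it had 0.904 and 1.14 CPM. The next had 3.22 and 3.29 CPM in LAY-15 and 10.1 to 36.1 CPM in the others of day 30 (DESeq2 adjusted p = 0.00509). On the earlier days it was as low in YORK-09-03 (2.59 CPM) and HV-11-33 (3.37), but not in HV-11-05 (16.4) or YORK-09-08 (19.9). The third was QL07p041830, whose groups overlapped, at 41.1 and 5.23 CPM against 13.1 to 342 CPM (DESeq2 adjusted p = 0.0239). The member that was higher in LAY-15 had 57.3 and 32.8 CPM against 3.86 to 18.3 CPM (DESeq2 adjusted p = 0.0374), although it had only 0.100 and 0.350 CPM in the day-19 pair. In the day-16 YORK-09 seedlings this member had 30.4 and 19.4 CPM, and in the day-19 HV-11 seedlings 3.46 and 8.74. The treatment, extraction and family comparisons draw on overlapping sets of seedlings and are not independent of each other.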

How the data were processed

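Leaf RNA-seq of 12 seedlings was used. The authors deposited 1 table of raw read counts per gene. The submitters' processing notes name cutadapt 2.3, STAR 2.7.1, SAMtools 1.9, Picard 2.20.3 and HTSeq 0.11.1. The strand option and annotation version are not given in the sources used here, so overlapping, antisense and near-identical genes may share reads. Methylation and microbial data were not analysed here.

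CPM was the count divided by the column total. The reduced genes and the comparisons were chosen with earlier results of these data known. Identifiers were printed for the member with the highest median CPM, the one with the largest ratio, and those with the smallest p among members higher in treated seedlings and on day 30; the rest are described without one. Levels on the log2 scale used a pseudocount of 0.5 CPM.

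Tests used edgeR 4.0.16 (quasi-likelihood, TMM, filterByExpr with a minimum count of 10 and a minimum total of 15) in R 4.3.3, with Benjamini-Hochberg adjustment over all genes tested and a threshold of 0.05. All 206 members passed the filter in each comparison. The treatment model had extraction day as covariate. DESeq2 1.42.0, median-ratio scaling, no filter, other covariates and samples, and each seedling left out in turn were tried. Same-day seedlings of a family form 6 pairs by the labels, and deviations within pairs correlated at 0.0673 to 0.489, so a block of pairs was fitted as an alternative. The scripts were checked on simulated data with 200 changed genes. Summaries and figures used Python 3.11.15, pandas 2.3.3, numpy 2.4.6 and matplotlib 3.10.9.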

Additional observations from a re-analysis of the deposited data

Results flagged for a closer look

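Among the other 10 seedlings, the highest and lowest of the 5 controls and of the 5 treated seedlings were checked for a gap to the nearest value that was large for the range. Of 18 groups of values, 4 had such a gap. The groups share seedlings, the genes were picked for level, ratio or p, and CPM was taken without a log scale. No chance rate is thus set beside that number. The members' median deviation was 0.50 on the log2 scale in the control YORK-09-03, above the other controls. QL08p021800 stood at 15901 CPM in the control HV-11-05. In the treated HV-11-40, QL03p065820 stood at 132 CPM and QL07p041830 at 96.2 CPM. Without HV-11-40 the treatment difference of QL03p065820 was 0.47 on the log2 scale in place of 1.00, and the extraction difference of QL07p041830 was 2.10 in place of 2.32.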

How the results depend on the processing

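The number of reduced genes was 126 with a minimum of 5 CPM, 343 with no minimum, 90 with a limit of 1/3 and 62 with a limit of 1/4. It was 1245 for LAY-15-30 alone and 419 for LAY-15-34 alone. Leaving out any 1 of the other 10 seedlings gave 214 to 251 genes, and TMM or median-ratio scaling gave 180 each. DESeq2 called 23 genes by treatment, 46 by extraction day, 250 by family on day 30 and 751 for the difference between families, where edgeR called 0, 0, 1 and 0. Members called by DESeq2 were 0, 0, 4 and 7, where edgeR called 0 in each. The family comparison called 5 genes with no treatment term and 0 to 0 with a seedling left out, and the members' median then ran from -0.45 to -0.10.

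For treatment, members at an unadjusted p under 0.05 numbered 1 (0.485%, all genes 2.80%) in the reported fit, 14 (6.80%, all genes 2.96%) with the replicate block of pairs and 15 (7.28%, all genes 3.76%) without LAY-15-30. Without the pair they were 18 (8.74%), where all genes had 3.57% without the block and 3.30% with it. The block changed no call, and its median was 0.00. The median treatment difference of members was 0.34 with HV-11-05 left out, -0.49 with HV-11-33, -0.39 with LAY-15-30 and 0.04 with LAY-15-34. These are the day-19 seedlings, so each such fit leaves the low levels of the pair unbalanced between treatments. Without the pair the median was -0.20. In the family comparison 28 members (13.6%, all genes 8.39%) had an unadjusted p under 0.05 without YORK-09-37, against 13 (6.31%, all genes 3.99%) in the reported fit, so the share of all genes rose with it. Counts of 3 or fewer limit any fold for 62 genes in LAY-15-30 and 28 in LAY-15-34, and 1 pair of plants gives no replicate of its family and day.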
